A study of Homo sapiens with 8 samples.

Results

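LIN28A, LIN28B and L1TD1 encode RNA-binding proteins of pluripotent cells. They were followed in 8 long-read RNA libraries of the H1 human embryonic stem cell line. The 3 genes were taken as the rows of the combined transcript table that carry their symbols and that the combined assembly itself names for them. This gave 18 transcripts of 96614, which are 4 for LIN28A, 4 for LIN28B and 10 for L1TD1, in 3 of 29937 genes and loci with at least 1 read. The 4 groups had 2 repeats each, all from this single line. Undifferentiated cells (hPSC) were kept in mTeSR1. The other groups were collected after 5 days in germ layer media. Endoderm medium held WNT3A with Activin A at 100 ng/ml. Mesoderm medium held VEGF and BMP4 at 100 ng/ml each and bFGF at 10 ng/ml, with Activin A at 100 ng/ml for the opening 24 h. Ectoderm medium held the inhibitors A83-01, PNU-74654 and Dorsomorphin at 2 µM each. Polyadenylated RNA was read on a PacBio Sequel II, and the labels do not say that the repeats came from separate cultures, so p-values may measure technical spread only.

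LIN28A and LIN28B each pair a cold-shock domain with a zinc knuckle that binds the loop of let-7 precursors. LIN28A recruits the uridylyltransferases TUT4 and TUT7, the tailed precursor is degraded by DIS3L2, and mature let-7 fails to accumulate. Mature let-7 in turn silences transcripts of growth and proliferation genes, among them LIN28A and LIN28B. L1TD1 was domesticated from the RNA-binding protein of a LINE-1 retrotransposon and is known to associate with LIN28A in human embryonic stem cells.

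The sequences that link the LIN28 proteins to let-7 are shown so that the let-7 seed can be set beside its matches in LIN28A and LIN28B. They are from RefSeq (GRCh38.p14). In the hairpins, capitals mark a GGAG in the loop, the letters known to bind the zinc knuckle. In the mature strands, capitals mark the seed, bases 2 to 8.
let-7g hairpin (chr3:52268278-52268361, minus strand): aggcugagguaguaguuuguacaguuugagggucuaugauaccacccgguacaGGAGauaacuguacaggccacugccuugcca
let-7a-1 hairpin (chr9:94175957-94176036, plus strand): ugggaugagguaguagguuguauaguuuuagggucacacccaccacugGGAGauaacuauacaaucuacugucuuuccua
let-7a-3 hairpin (chr22:46112749-46112822, plus strand): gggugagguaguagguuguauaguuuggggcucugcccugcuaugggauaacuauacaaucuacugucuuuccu
mature let-7a-5p: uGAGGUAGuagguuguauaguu
mature let-7g-5p: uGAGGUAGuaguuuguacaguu
mature miR-125b-5p: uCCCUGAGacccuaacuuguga
A GGAG lay between the arms in 8 of 11 let-7 family hairpins with both arms in the table, against 60 of all 739 such hairpins (8.12%). let-7a-3 is an example without it. In all, 11 mature names share the let-7a seed.

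The reverse complement of that seed, CTACCTC, was searched on the transcript strand of each 3′ untranslated region of GENCODE 29 (GRCh38). LIN28A had 1 match in 3264 nt, where 16.1% of 2079 other regions of similar length hold at least 1. LIN28B had 4 matches in 4549 nt, where 23.4% of 1468 regions of similar length hold at least 1. L1TD1 had none in 956 nt (6.10% of 2228 regions). The seed match of miR-125b, CTCAGGG, occurred at 1 position in LIN28A (25.3% of the length-matched regions hold it), at 1 position in LIN28B (30.4%) and at none in L1TD1 (11.3%). The matches, in capitals with 12 flanking bases before them, read as follows on the plus strand.
LIN28A let-7 match (chr1:26427351-26427378): cagcctattgaaCTACCTCatttttgcc
LIN28A miR-125b match (chr1:26427247-26427274): tacatgagcaatCTCAGGGatagccagc
LIN28B let-7 match (chr6:105078815-105078842): cggttgcaaagtCTACCTCatgcaagta
LIN28B let-7 match (chr6:105081242-105081269): tgatgatagtaaCTACCTCtgagtttga
LIN28B let-7 match (chr6:105081424-105081451): tacagcaaaaggCTACCTCatagttgat
LIN28B let-7 match (chr6:105082863-105082890): tgatggtgttgaCTACCTCttgaatcac
LIN28B miR-125b match (chr6:105081119-105081146): caaagaactttgCTCAGGGaacatacca
A match of letters is a description and not a measured site. The libraries hold polyadenylated RNA, so mature miRNA levels were not measured here.

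The libraries held from 503840 to 1180888 counted reads, with the ectoderm libraries the deepest. The hPSC repeats were less alike (Pearson r across genes 0.858) than those of the other groups (0.932 to 0.963), so the results of the 3 genes and the counts of the gene lists against hPSC were repeated without each hPSC library. Listed pluripotency markers summed to between 4404 and 4487 CPM (counts per 1000000 reads of the library) in hPSC, and to at most 1935 CPM elsewhere. Not every gene of that list went with the sum. SALL4 was higher in endoderm (517 and 495 CPM) than in hPSC (333 and 431 CPM). NANOG overlapped between endoderm (157 and 111 CPM) and hPSC (152 and 230 CPM). SOX2 stood at 137 and 8.9 CPM in hPSC and at 152 and 133 CPM in ectoderm. Ectoderm and endoderm markers summed highest in the group of their name, at 1105 to 1348 CPM and 4164 to 4338 CPM. CER1 and LEFTY1 led the endoderm sum, while FOXA2 had 3 and 4 reads there and SOX17 had 150 and 16. OTX2, a gene of the ectoderm list, was higher in endoderm (412 and 406 CPM) than in ectoderm (153 and 134 CPM). In mesoderm, listed mesoderm markers summed to 1073 to 1181 CPM, led by HAND1, TBX3 and BMP4, while MIXL1 and FOXF1 were at 0 reads and TBXT at 1 and 0 reads. KDR, of the same list, went the other way, with 57 and 44 reads in hPSC and 1 and 1 in mesoderm. Listed amnion and trophoblast markers, among them GABRP, IGFBP3 and GATA3, summed to 6684 to 7365 CPM in mesoderm and to between 14.5 and 80.3 CPM in the other libraries. All 8 tested genes of that list were higher in mesoderm than in hPSC, and its part in the mesoderm results that follow was not tested.

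LIN28A was high in hPSC, ectoderm and endoderm and lower in mesoderm. The gene (ENSG00000131914.11, chr1:26410759-26429728, plus strand) had 4200 reads. The hPSC libraries held it at 811 and 612 CPM and the mesoderm libraries at 228 and 204 CPM. Ectoderm stood at 879 and 1280.0 CPM, and endoderm at 835 and 761 CPM. Both mesoderm libraries lay below all 6 others. In CPM both ectoderm libraries lay above those of hPSC and endoderm, whose ranges overlapped. Mean levels were 1079 ± 284 CPM for ectoderm, 798 ± 52.5 for endoderm, 711 ± 140.5 for hPSC and 216 ± 16.5 for mesoderm (SD, n = 2 each). Fewer cells with LIN28A and less LIN28A RNA per cell cannot be told apart in such bulk samples.

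Differences were fitted with edgeR's quasi-likelihood test over all 10847 genes, with Benjamini-Hochberg adjustment and a threshold of 0.05. LIN28A fell by 1.94 ± 0.31 (SE) on the log2 scale from hPSC to mesoderm, 3.83-fold (adjusted p = 0.000236). It was the sole called member of the 3 in this comparison, in which 35.2% of all genes were called. LIN28A was 4.37-fold higher in ectoderm than in mesoderm (log2 difference 2.13 ± 0.31, adjusted p = 0.000104) and 5.47-fold higher in endoderm than in mesoderm (2.45 ± 0.32, adjusted p = 2.68e-05). Calls were made for 35.5% and 47.1% of all genes in those comparisons. Without the first or the second hPSC library, the mesoderm difference from hPSC was -1.92 and -1.99 and stayed called.

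Among hPSC, ectoderm and endoderm no LIN28A difference passed the test. The fitted log2 difference was 0.19 ± 0.29 for ectoderm minus hPSC (adjusted p = 0.618) and 0.51 ± 0.30 for endoderm minus hPSC (adjusted p = 0.217). The order of ectoderm and endoderm depended on the scaling: endoderm was higher by 0.32 ± 0.29 after TMM scaling (adjusted p = 0.347), and ectoderm was higher by 0.44 with library totals alone (adjusted p = 0.152). Counting only the reference-matching transcripts, ectoderm was higher by 0.38 and the mesoderm difference from hPSC was -2.64 (adjusted p = 6.4e-05).

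**Figure D1:**
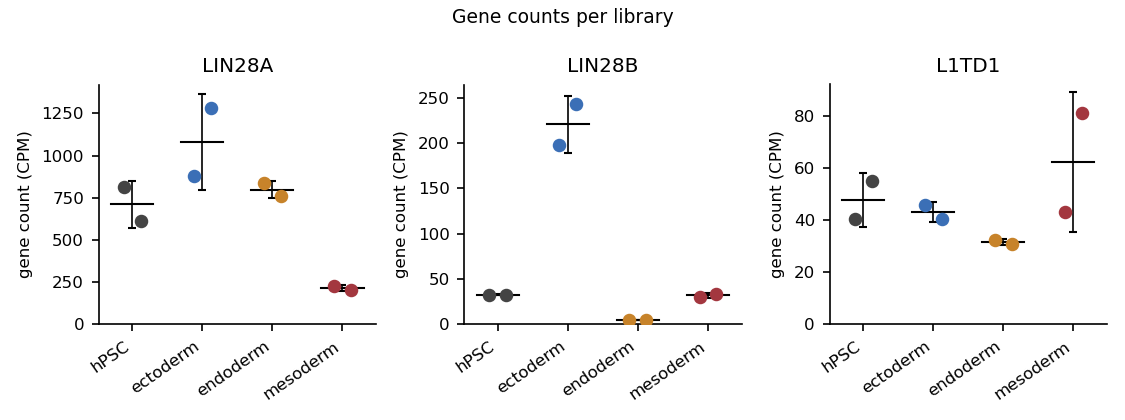
Gene counts of the 3 genes in CPM (vertical axes from 0) for each library, by group (horizontal axis). Points are libraries, bars are means and error bars are SD (n = 2). LIN28A was lowest in mesoderm, at 204 and 228 CPM, LIN28B was highest in ectoderm, at 198 and 243 CPM, and the L1TD1 points overlapped between groups.

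The 4 LIN28A transcripts share the whole annotated coding sequence, which ends at chr1:26426455, and differ in the last exon. The form with the most reads differs in the first exon as well. ENST00000326279 keeps that exon whole. ENST00000254231 lacks 508 nt of it (chr1:26428588-26429095). The form with the most reads lacks 544 nt (chr1:26428588-26429131), and another lacks 622 nt (chr1:26428510-26429131). Neither of these last forms has a reference transcript with the same introns. The 544-nt form also has a longer first exon, of 164 nt (chr1:26410759-26410922) against 106 nt (chr1:26410817-26410922) in the other forms. Its share therefore does not describe the last exon alone. All the missing stretches lie in the 3′ untranslated region, downstream of the let-7 and miR-125b matches printed above, which every form keeps. None starts with the GT that opens most introns: the 508-nt and 544-nt stretches start with GC, and the 622-nt stretch starts with CT. The 508-nt stretch ends with AG, and the 544-nt and 622-nt stretches end with CA. The downstream ends of the 508-nt and 544-nt stretches are 36 nt apart.

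The 544-nt stretch also holds complementary sequence inside it. In windows of 150 nt on each side of its ends, the longest complementary run had 23 bases, and its first arm starts 126 nt after the first missing base. At the same positions in 1642 other 3′ untranslated regions, 0.183% had a run as long, and the median run was 8 bases. The 508-nt stretch also had a longest run of 23 bases, starting at the same offset. For the 622-nt stretch the longest run had 19 bases. The comparison with other regions was made for the 544-nt stretch only. Whether the gaps arose in the cells or during reverse transcription was not tested.

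**Figure D2:**
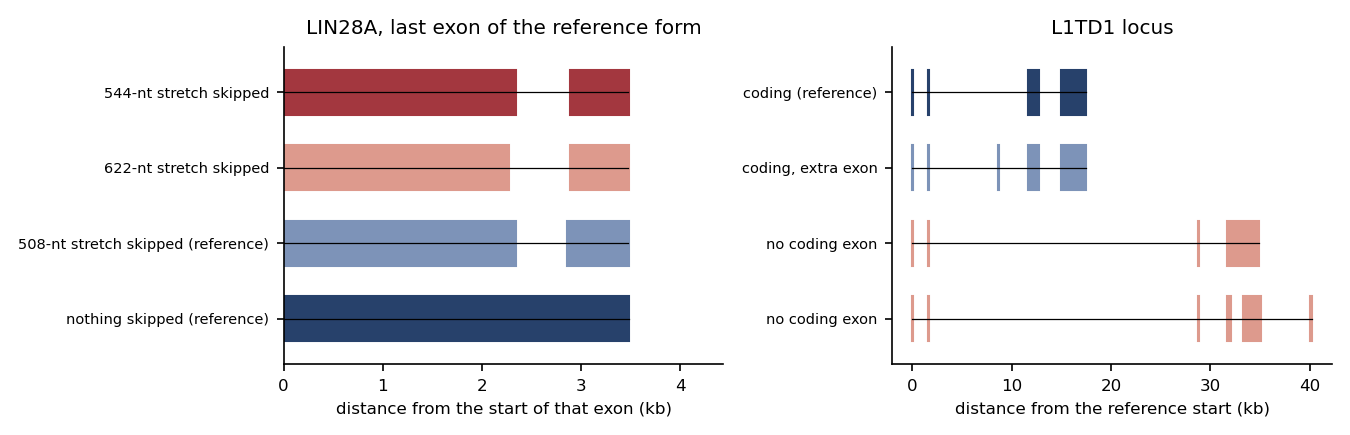
Exons (boxes) of the LIN28A forms across the last exon of the reference form, in kb from its start, and of 4 L1TD1 forms in kb from the reference start. The LIN28A gaps lie near the end of the exon, and the L1TD1 forms without a coding exon extend well past the end of the coding ones.

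The 544-nt form made up 37.9% of all LIN28A reads (1593 reads). The reference form that keeps the last exon whole (whole-exon form) made up 26.4% (1110), the 508-nt form 22.9% (961) and the 622-nt form 12.8% (536). The share of the 544-nt form was 61.2% and 65.0% in mesoderm and 52.8% and 46.4% in endoderm. It was 37.1% and 32.6% in the hPSC libraries, and 35.5% and 28.3% in those of ectoderm. Every mesoderm library lay above every endoderm library, and every endoderm library above hPSC and ectoderm, whose ranges overlapped. Means in the same order were 63.1 ± 2.75%, 49.6 ± 4.49%, 34.8 ± 3.18% and 31.9 ± 5.15% (SD, n = 2). Wilson 95% intervals, which cover counting error only, were 32.6 to 41.8% in the first hPSC library and 52.3 to 69.4% in the first mesoderm library. An exact permutation test of the spread among the 4 groups, over 105 partitions, gave p = 0.019 and 0.0571 after adjustment over the 3 genes. The smallest p that this design allows is 0.00952.

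By transcript, all 4 LIN28A forms fell from hPSC to mesoderm (edgeR), as did 16.3% of the 12440 transcripts tested. The 544-nt form fell by 0.96 ± 0.31 on the log2 scale (adjusted p = 0.0242). The 508-nt form fell by 2.30 ± 0.36, the whole-exon form fell by 2.87 ± 0.48 and the 622-nt form fell by 2.69 ± 0.41. In endoderm the 544-nt form rose over hPSC by 0.96 ± 0.29 (adjusted p = 0.0243), and the other 3 were not called, where 13.1% of transcripts rose. Both calls of the 544-nt form were lost under some alternatives. The rise was lost without a filter on low counts (adjusted p = 0.0688) and on leaving out the first mesoderm library or any ectoderm or endoderm library (0.0518 to 0.191). The fall in mesoderm was lost with DESeq2 (adjusted p = 0.0595) and without the first or the second mesoderm library (0.134 and 0.156). The test of transcript choice in edgeR (diffSpliceDGE, F test by gene) called LIN28A for mesoderm against hPSC (adjusted p = 0.0492, 7.00% of 2629 genes called) and for ectoderm against mesoderm (adjusted p = 0.0194, 5.97% called). In the other 4 comparisons LIN28A was not called, with 5.63% (ectoderm minus hPSC), 5.06% (endoderm minus hPSC), 14.6% (ectoderm minus endoderm) and 9.81% (endoderm minus mesoderm) of genes called. With all 8 libraries no single LIN28A transcript was called for choice in any comparison. Of 6963 transcripts, 1.26%, 1.09% and 1.61% were called in ectoderm, endoderm and mesoderm against hPSC. The share was 4.70% for ectoderm minus endoderm, 1.71% for ectoderm minus mesoderm and 2.73% for endoderm minus mesoderm.

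The share depends on which forms the assembly offered. The 544-nt form is in the authors' hPSC and mesoderm assemblies and was absent from those of ectoderm and endoderm, so its share could not be measured there. Counted in those own assemblies, it made up 47.7% and 44.9% of LIN28A reads in hPSC and 62.0% and 65.0% in mesoderm, a smaller gap than in the combined assembly. Reads of the whole-exon form can be counted in each group's own assembly. They made up 9.92% and 17.5% of LIN28A reads in mesoderm and 20.0% and 25.8% in endoderm. They made up 28.0% and 33.3% in the hPSC libraries, and 19.8% and 38.4% in those of ectoderm. Both mesoderm values lay below the others, and the ectoderm repeats spanned the hPSC and endoderm values.

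**Figure D3:**
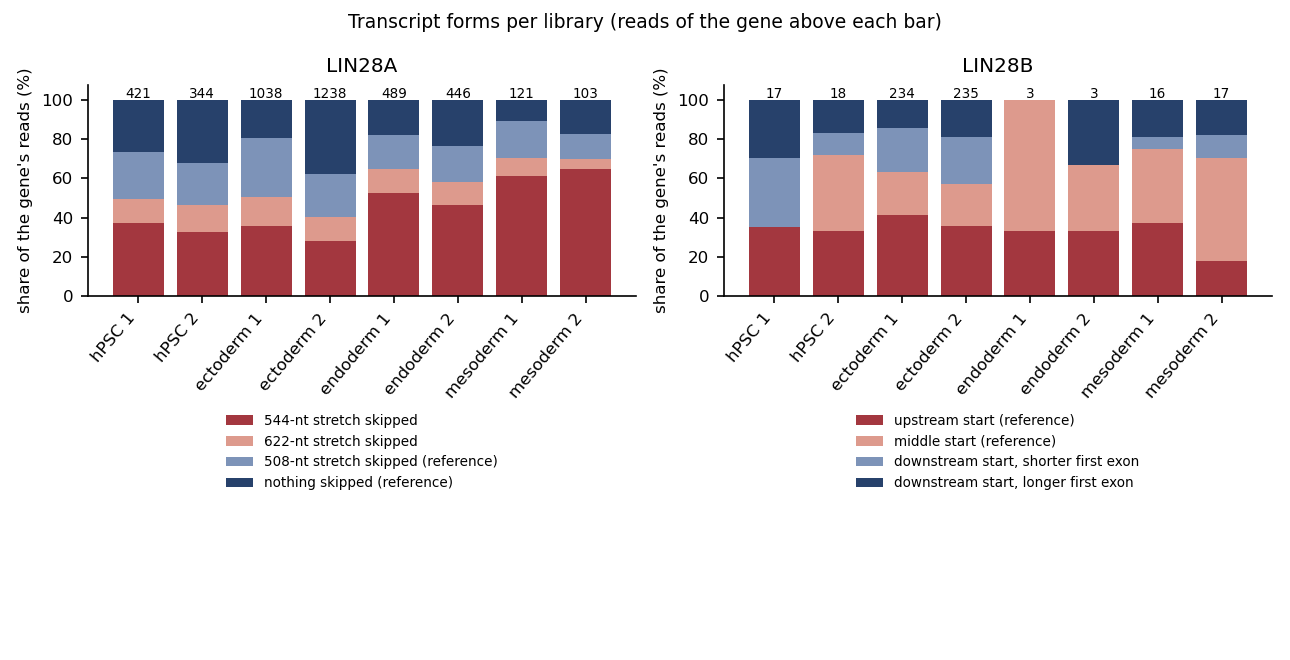
Share of the gene's reads (%) in each transcript form, stacked, for LIN28A and LIN28B in each library, with the gene's reads above the bar. The 544-nt LIN28A form reaches 61.2% and 65.0% in mesoderm, and the LIN28B endoderm bars rest on 3 reads each.

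LIN28B was highest in ectoderm, intermediate in hPSC and mesoderm, and lowest in endoderm. The gene (ENSG00000187772.8, chr6:104940467-105083332, plus strand) had 543 reads, of which 469 came from ectoderm. The ectoderm libraries had 234 and 235 reads (198 and 243 CPM) and the endoderm libraries 3 and 3 (5.12 and 5.12 CPM). The hPSC libraries had 17 and 18 reads (32.7 and 32.0 CPM), and the mesoderm libraries 16 and 17 (30.1 and 33.7 CPM). The ectoderm and endoderm libraries lay outside the range of all the others, in opposite directions, while hPSC and mesoderm overlapped.

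LIN28B was 5.04-fold higher in ectoderm than in hPSC (log2 difference 2.33 ± 0.32, adjusted p = 4.88e-05), the sole call among the 3 genes where 48.6% of all genes were called. It was 6.02-fold higher in ectoderm than in mesoderm (2.59 ± 0.32, adjusted p = 1.96e-05). It fell by 2.30 ± 0.52 on the log2 scale from hPSC to endoderm, 4.92-fold (adjusted p = 0.00393), again the sole call of the 3, with 27.1% of all genes called. Ectoderm exceeded endoderm by 4.63 ± 0.42, 24.8-fold (adjusted p = 6.65e-07), where 63.1% of all genes were called. Endoderm lay below mesoderm by 4.12-fold (log2 difference -2.04 ± 0.52, adjusted p = 0.00503). Mesoderm and hPSC were not told apart (-0.25 ± 0.38, adjusted p = 0.631). Without the first or the second hPSC library, the ectoderm difference was 2.16 and 2.54 and the endoderm difference -2.45 and -2.15, all called.

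The endoderm values rest on 6 reads, and each library stands at the level of 3 reads that was taken as the detection floor. The ratio of pooled CPM to endoderm was 6.32 for hPSC (exact 95% interval 2.63 to 18.4), 42.6 for ectoderm (19.4 to 116.8) and 6.23 for mesoderm (2.58 to 18.2), with counting error only and without TMM scaling. Counting only the transcripts that match the reference, the fall from hPSC to endoderm was -1.69 ± 0.66 and was not called (adjusted p = 0.0735).

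Transcript length moved with these results. The LIN28B transcripts averaged 5665 nt by reads, longer than those of 75.4% of tested genes. The read-weighted median transcript length was 3542 and 3771 nt in the ectoderm libraries, 3030 and 3086 nt in mesoderm, 2669 and 2454 nt for hPSC, and 2446 and 2309 nt for endoderm, the same order as the LIN28B level apart from hPSC and mesoderm, which overlapped for LIN28B. The 3459 genes over 5000 nt had a median log2 difference of 0.94 between ectoderm and hPSC, and of 1.29 between ectoderm and endoderm. With the trend over length removed, LIN28B remained higher in ectoderm than in hPSC, by 1.58 ± 0.32 (adjusted p = 0.00134), than in mesoderm, by 2.23 (adjusted p = 6.77e-05), and than in endoderm, by 3.69 (adjusted p = 5.18e-06). The fall from hPSC to endoderm was then -2.11 (adjusted p = 0.00726), and endoderm minus mesoderm was -1.47 (adjusted p = 0.0392). LIN28A (3588 nt) fell from hPSC to mesoderm by 2.08 in that fit (adjusted p = 0.000116).

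**Figure D4:**
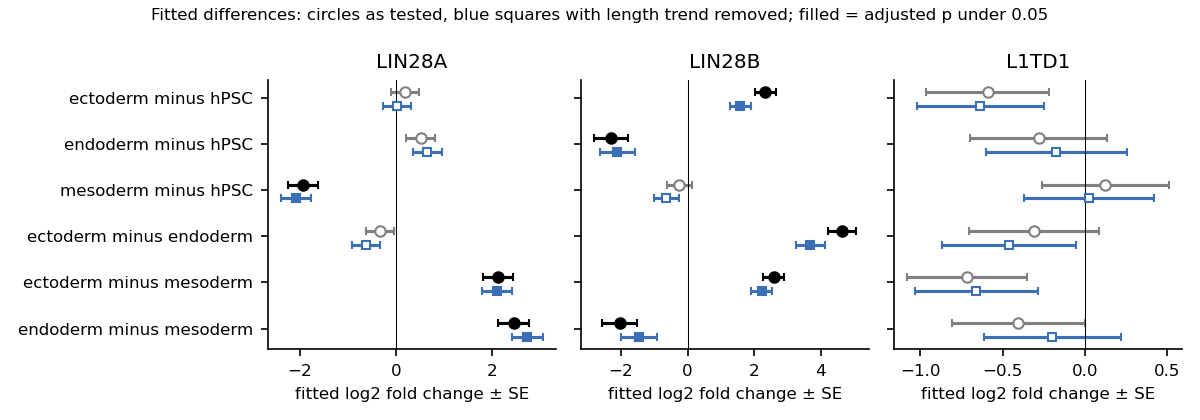
Fitted log2 fold changes with SE (horizontal axis) for the 6 comparisons of groups, for each gene. Circles are the edgeR values and squares those with the trend over transcript length removed, filled where the adjusted p was under 0.05. LIN28B differs from the other groups in ectoderm in both fits, and no L1TD1 value was called.

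LIN28B transcripts began at 3 places and shared the downstream exons, including the last one (chr6:105078414-105083332, 4919 nt). ENST00000637759 starts upstream at chr6:104940467 and had 204 reads (37.6%). ENST00000345080 starts in the middle at chr6:104957107 and had 126 reads (23.2%). A pair of forms with no matching reference transcript starts at chr6:104957526 and had 121 and 92 reads. Both of those lack every annotated start codon of LIN28B, and together they held 213 of the 543 reads. In ectoderm, where the depth allows a share, the upstream start held 41.5% and 35.7% of reads, the middle start 21.8% and 21.3% and the downstream start 36.8% and 43.0%. With 16 to 18 reads per library in hPSC and mesoderm the Wilson intervals were wide: the downstream start held 64.7% (41.3 to 82.7%) and 27.8% (12.5 to 50.9%) in hPSC.

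No difference in the upstream share was shown between groups (exact permutation p = 0.743, group means from 27.6% in mesoderm to 38.6% in ectoderm). All 4 LIN28B forms were higher in ectoderm than in hPSC in the edgeR test, as were 23.7% of all transcripts, by 2.68 ± 0.43 for the upstream form, 2.60 ± 0.67 for the middle form and 2.55 ± 0.55 and 2.04 ± 0.56 for the downstream pair. In endoderm 2 of the 4 forms were called lower than in hPSC, where 13.7% of transcripts were. These are the upstream form, with 1 read in each endoderm library, and the 5554-nt downstream form, with 0 reads in both. DESeq2 called neither (adjusted p = 0.22 and 0.094), nor the longer downstream form in ectoderm (adjusted p = 0.115), which was also lost without the second ectoderm library (0.126). The call of the upstream form in endoderm was lost with RLE scaling, with the replicate block, without a filter and on leaving out any of the 8 libraries (adjusted p from 0.0539 to 0.237). The call of the 5554-nt form was lost without a filter (adjusted p = 0.0751), without either endoderm library (0.126 and 0.128) and without the first hPSC library (0.138). The test of transcript choice called LIN28B in none of the 6 comparisons, with adjusted p from 0.346 to 0.972. L1TD1 had a single form with enough reads and was not tested for choice.

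The 250 bases before the middle start (chr6:104956857-104957106, plus strand, RefSeq GRCh38.p14) are shown because the assembled transcript begins at the next base. Capitals mark an E-box (CACGTG) and a CCAAT box on the other strand (ATTGG).
LIN28B promoter window, middle start: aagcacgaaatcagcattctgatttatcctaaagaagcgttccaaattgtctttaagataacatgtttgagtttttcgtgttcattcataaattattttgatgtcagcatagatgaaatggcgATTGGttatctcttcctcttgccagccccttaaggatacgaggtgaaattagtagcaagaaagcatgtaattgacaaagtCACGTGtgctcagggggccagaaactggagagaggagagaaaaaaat
It holds CACGTG, which 6.34% of 35116 such windows hold on either strand, and 1 CCAAT box (32.0% of windows). It holds no ATGCAAAT, the octamer of POU factors (1.63%), and no TATAAA (10.7%). Its GC content is 38.4% with 6 CpG, against medians of 58.0% and 11 over all windows. The window before the L1TD1 coding form (chr1:62194599-62194848) also ends at the base before its transcript and is not printed. Neither that window (GC content 59.6%) nor the other LIN28B window (chr6:104940715-104940964, GC content 73.6%) holds CACGTG.

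L1TD1 showed no called difference between any groups. The gene (ENSG00000240563.2, chr1:62194706-62235060, plus strand) had 246 reads, of which the hPSC libraries had 21 and 31 (40.4 and 55.2 CPM). The mesoderm libraries had 23 and 41 reads (43.3 and 81.4 CPM), the ectoderm libraries 54 and 39 (45.7 and 40.3 CPM), and the endoderm libraries 19 and 18 (32.4 and 30.7 CPM). The endoderm libraries were the lowest, and the other 3 groups overlapped. Fitted log2 differences from hPSC were -0.59 ± 0.37 for ectoderm (adjusted p = 0.203), -0.28 ± 0.41 for endoderm (adjusted p = 0.659) and 0.12 ± 0.39 for mesoderm (adjusted p = 0.83). The largest of the 6 in size was -0.71 ± 0.36 for ectoderm minus mesoderm (adjusted p = 0.14). Without the first hPSC library, L1TD1 was called lower in ectoderm than in hPSC (-0.96 ± 0.37, adjusted p = 0.0269) and than in mesoderm (adjusted p = 0.0377). It was also called for ectoderm against hPSC when the intronic transcripts listed under its symbol were added (-0.82 ± 0.28, adjusted p = 0.0282), and against mesoderm in a fit of those 4 libraries (-0.73 ± 0.29, adjusted p = 0.0414).

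A single L1TD1-named form, ENST00000498273 with 168 reads (68.3%), holds the coding exons. Its share was 81.5% and 71.8% in ectoderm, 69.6% and 78.0% in mesoderm, 42.9% and 67.7% in the hPSC libraries, and 36.8% and 61.1% in those of endoderm. In this share, which leaves out the Y_RNA-named transcript described next, both ectoderm and both mesoderm libraries lay above all hPSC and endoderm libraries. The test of the spread among the 4 groups was not passed (exact permutation p = 0.181, 0.271 after adjustment over the 3 genes). The other 9 named forms, with 78 reads in all, start at or just upstream of the coding form's start and then skip both coding exons. They splice to exons from chr1:62223577 onward and end at chr1:62229716 or chr1:62235060. GENCODE 29 lists no gene between the end of L1TD1 at chr1:62212328 and KANK4, which begins at chr1:62236979 on the other strand. Their counts were 12 and 10 in the hPSC libraries, 12 and 7 for endoderm, 7 and 9 for mesoderm and 10 and 11 for ectoderm. Taken as a set, which was done after the structures were seen, they were lower in ectoderm than in hPSC by 1.45 ± 0.47 (edgeR adjusted p = 0.018) and than in endoderm (-1.46 ± 0.49, adjusted p = 0.016).

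A further transcript of the locus holds the full L1TD1 coding sequence but is named Y_RNA in the table. GENCODE 29 annotates a small RNA inside its last exon (chr1:62211557-62211666). It has an added exon of 111 nt (chr1:62203447-62203557) upstream of the coding exons. It had 64 reads, with 12 and 13 from hPSC, 6 and 5 from endoderm, 11 and 10 from ectoderm and 2 and 5 from mesoderm. Of reads with the coding exons, those with the added exon were 57.1% and 38.2% in hPSC, 46.2% and 31.3% in endoderm, 20.0% and 26.3% in ectoderm and 11.1% and 13.5% in mesoderm. The hPSC and endoderm libraries lay above the others, with mesoderm lowest. No test was run on a share chosen after it was seen. Adding this transcript gave 232 coding reads, and no comparison of that sum was called (log2 differences from hPSC of -0.68 ± 0.40, -0.71 ± 0.46 and -0.18 ± 0.42 in ectoderm, endoderm and mesoderm). With it counted, forms without a coding exon held 36.4% and 22.7% of reads in hPSC and 28.0% and 19.6% in mesoderm. They held 48.0% and 30.4% in endoderm and 15.4% and 22.4% in ectoderm. On this count the hPSC and mesoderm libraries overlapped.

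The other genes of the pathway were read from lists. Of 5 genes for LIN28 cofactors and precursor decay, 2 rose and 2 fell in ectoderm against hPSC, where 23.8% of all genes rose and 24.8% fell. TUT4, which tails the precursor that LIN28A holds, had 22 and 15 reads in hPSC and 216 and 228 in ectoderm, and rose by 2.19 ± 0.33 on the log2 scale (adjusted p = 0.000124). TUT7, its paralog, rose by 1.96 ± 0.42 (adjusted p = 0.00155). TRIM25, a ubiquitin ligase that aids the tailing, and TUT1, another terminal uridylyltransferase, fell by 1.40 ± 0.50 and 0.98 ± 0.29. In mesoderm TUT4 rose by 1.64 ± 0.35 and TUT1 fell by 1.09 ± 0.31, where 17.0% of genes rose and 18.2% fell. In endoderm none of the 5 was called in the edgeR test, where 13.4% of genes rose and 13.7% fell. TUT4 and TUT7 transcripts average 6700 and 6738 nt. With the length trend removed, TUT4 rose in ectoderm by 1.26 (adjusted p = 0.00797), TUT7 was no longer called (1.03, adjusted p = 0.0699) and neither was TUT1 (-0.75, adjusted p = 0.0591). Without the second hPSC library fewer of the 5 fell in ectoderm, and the other counts of this list were as with all libraries.

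Of 10 genes for let-7 processing, 1 rose and 1 fell in ectoderm (all genes 23.8% and 24.8%), 1 rose and none fell in endoderm (13.4% and 13.7%), and 1 rose and 3 fell in mesoderm (17.0% and 18.2%). DICER1, which cuts the precursor, had 9 and 2 reads in hPSC and 125 and 114 in ectoderm, and rose by 3.03 ± 0.45 (adjusted p = 9.75e-05). With the length trend removed that rise was 1.79 (adjusted p = 0.00666). Its transcripts average 10121 nt. TARBP2, the partner of Dicer, fell by 2.39 ± 0.35 in ectoderm and by 1.66 ± 0.36 in mesoderm. DGCR8, the partner of Drosha, rose by 1.53 ± 0.43 in endoderm and by 1.32 ± 0.43 in mesoderm. XPO5, which exports precursors from the nucleus, and PRKRA, another Dicer partner, fell by 1.41 ± 0.33 and 1.09 ± 0.33 in mesoderm. The list medians were 0.24, -0.83 and -0.25 in ectoderm, endoderm and mesoderm, beside -0.01, -0.13 and 0.01 over all genes. Length removal changed the ectoderm counts to 1 up and 4 down, beside 15.2% and 20.2% of all genes. In mesoderm it left none up and 3 down, beside 14.1% and 17.1% of all genes, as DGCR8 (adjusted p = 0.0718) and PRKRA (-0.80, adjusted p = 0.0646) were no longer called. Without the first hPSC library 3 of the list fell in endoderm, where 12.9% of all genes did, 3 fell in ectoderm (25.4%), and 2 rose and 4 fell in mesoderm (20.2% and 22.1%). Without the second, 1 fell in endoderm (16.7%).

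Of 6 let-7 host genes, 5 had reads and 1 had enough to be tested. The host transcripts MIRLET7BHG, MIRLET7A1HG, MIRLET7IHG and MIR100HG had at most 11 reads in any library. HUWE1, which hosts let-7f-2 and miR-98, was not called in the 3 comparisons with hPSC (log2 differences -0.07, -0.14 and -0.66). With the length trend removed it was called lower in ectoderm (-1.55, adjusted p = 0.00249) and mesoderm (-1.29, adjusted p = 0.011), its transcripts averaging 13518 nt.

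Of 18 listed let-7 target genes, 7 rose and 2 fell in ectoderm (all genes 23.8% and 24.8%), 1 rose and 7 fell in endoderm (13.4% and 13.7%), and 3 rose and 3 fell in mesoderm (17.0% and 18.2%). Their medians were 0.36, -1.13 and 0.12. In ectoderm CCND1, a cyclin gene, rose by 2.00 ± 0.41, and the transcription factor gene MYC fell by 3.43 ± 0.33. In endoderm TRIM71, a repressor of mRNAs, had 1 and 5 reads against 83 and 18 in hPSC, a fall of 3.77 ± 0.74 (adjusted p = 0.00164). The hPSC repeats differed widely for it. IGF2BP3, an mRNA-binding protein, had 13 and 10 reads against 96 and 58, a fall of 2.50 ± 0.41 (adjusted p = 0.000427). MYC and the cyclin gene CCND2 fell by 2.06 ± 0.33 and 1.79 ± 0.31. In mesoderm ARID3A, a DNA-binding factor, and CDK6, a cell-cycle kinase, rose by 3.16 ± 0.39 and 2.50 ± 0.60, while MYC and IGF2BP3 fell by 2.33 ± 0.32 and 1.83 ± 0.38. With the length trend removed 4 rose and 4 fell in ectoderm (all genes 15.2% and 20.2%), 2 rose and 6 fell in endoderm (15.1% and 11.9%), and mesoderm had 2 up and 3 down (14.1% and 17.1%). The endoderm falls numbered 4 without the first hPSC library and 10 without the second, where 12.9% and 16.7% of all genes fell. The mesoderm counts moved as well.

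Of 20 listed RNA-binding proteins of stem and progenitor cells, 18 could be tested. In ectoderm 6 rose and none fell (all genes 23.8% and 24.8%), in endoderm 1 rose and 9 fell (13.4% and 13.7%), and in mesoderm 1 rose and 2 fell (17.0% and 18.2%), with medians of 0.36, -1.07 and 0.05. PUM2, a Pumilio repressor, QKI, a splicing regulator, and FXR1, a relative of the fragile X protein, rose in ectoderm by 2.43 ± 0.33, 2.20 ± 0.40 and 1.37 ± 0.33. YBX3 and YBX1, cold-shock domain proteins like the LIN28 pair, were lower in endoderm: YBX3 fell by 3.13 ± 0.69 and YBX1 fell by 2.26 ± 0.62. Their hPSC repeats stood far apart, at 279 and 33 reads for YBX3 and 641 and 90 for YBX1, against 17 and 12 and 95 and 31 in endoderm. In mesoderm ZFP36L1, which speeds mRNA decay, rose by 1.23 ± 0.32 and IGF2BP1 fell by 0.78 ± 0.29. With the length trend removed 2 rose and 2 fell in ectoderm (all genes 15.2% and 20.2%). There PUM2 (1.60) and QKI (1.13) remained called and FXR1 did not. In endoderm 7 then fell, beside 11.9% of all genes. Leaving out the first or the second hPSC library moved the counts of this list in ectoderm, endoderm and mesoderm. In each of these fits more of the list rose in ectoderm than with all libraries, and falls appeared there too. Each such fit holds a single hPSC library, so its counts are not given for this list. The counts given above for the other lists without an hPSC library carry the same limit. TRIM71, IGF2BP1, IGF2BP2 and IGF2BP3 are in both of these lists, and DICER1 is in both the processing and the target list.

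**Figure D5:**
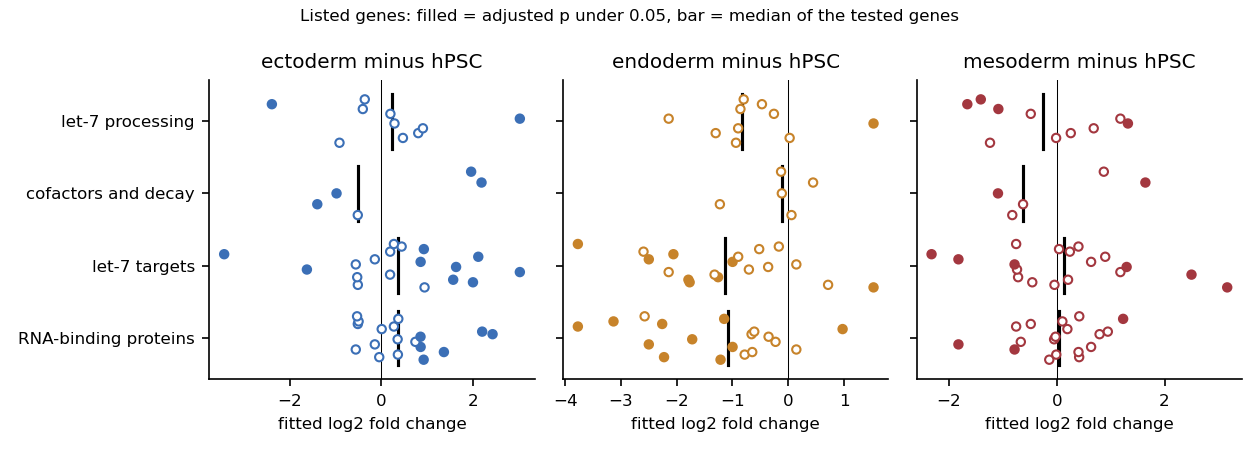
Fitted log2 fold changes against hPSC (horizontal axes) of the tested genes of 4 lists in ectoderm, endoderm and mesoderm. Each point is a gene, filled where the adjusted p was under 0.05, and the bar is the list's median. The target and RNA-binding protein lists have medians of -1.13 and -1.07 in endoderm and 0.36 each in ectoderm.

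The genes whose level followed each member most closely were ranked by Pearson r of log2(CPM + 1) over the 8 libraries, as a description. These points share library depth and the length differences above. For LIN28A they were TNFRSF10B (0.984), PLEKHB1 (0.969), ARHGEF4 (0.966), KLHL18 (0.964) and EPHB2 (0.961). PLEKHB1 and EPHB2 were at 0 in both mesoderm libraries. For LIN28B they were TRPM3, SUPT16H, LINC01515, GALNT7 and SF3B1, each at 0.995. SF3B1, a core splicing factor, ran from 47.8 CPM in endoderm to 659 CPM in ectoderm. For L1TD1 they were RPL15 (0.903), FH (0.893), GTF2H2C (0.878), TRMT61B (0.877) and JPH3 (0.87). Among the members r was 0.199 for LIN28A and LIN28B, -0.632 for LIN28A and L1TD1, and 0.353 for LIN28B and L1TD1.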

How the data were processed

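Per the labels' protocols, polyadenylated RNA of H1 cells was sequenced as PacBio long reads. The submitters' processing notes list minimap2, StringTie, GRCh38 and hg38 without roles or versions. The counter, its use of strand, and its treatment of reads shared with similar copies, such as the processed pseudogene of LIN28A, are not given in the sources used here. The deposited values are whole raw counts per assembled transcript, with no normalization. The 2 deposited endoderm columns carry the unit expected counts in the record made here, but they hold whole numbers like the others, so no rounding was needed. CPM tables from the authors were left unused.

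Transcript counts were summed per gene. edgeR 4.0.16 (R 4.3.3) with TMM scaling and filterByExpr (minimum count 10) was fitted to all 8 libraries, in 6 comparisons, with Benjamini-Hochberg adjustment over 10847 genes or 12440 transcripts. CPM are counts per 1000000 reads of a library, from 503840 to 1180888 reads. On simulated data, 79.5%, 66.5% and 77% of 200 genes changed 4-fold were recovered for ectoderm, endoderm and mesoderm against hPSC among 10847 genes. The share of false calls was 3.05%, 2.92% and 5.52%. Among 12440 transcripts, 64%, 55.5% and 55.5% of 200 were recovered in the same order, with false shares of 9.86%, 11.2% and 5.13%. Every transcript share, and the gene share for mesoderm, lay above the adjusted p threshold, furthest for ectoderm and endoderm transcripts. The transcript calls are therefore less certain than that threshold states. TMM left median log2 differences over all genes of -0.01, -0.13 and 0.01 against hPSC, and library totals alone gave 0.40, -0.46 and 0.24.

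The genes and lists were chosen with earlier results of these data known. Named were the 3 genes, their transcripts with at least 5% of the gene's reads or at least 20 reads, up to 4 called genes per list and comparison with hPSC with the largest fitted change and a level of 10 CPM or more in each library where they were higher, and 5 genes per member by likeness. Some genes that this rule names are not reported here. Genes cited for another reason were chosen after their values were seen. The list counts with the length trend removed or without an hPSC library were also computed after the data were seen. Alternatives were DESeq2 1.42.0, other scaling, filters and transcript sets, left-out libraries, a replicate block and removal of a trend over transcript length (limma 3.58.1).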

Additional observations from a re-analysis of the deposited data

Results flagged for a closer look

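Several transcripts outside the gene counts had more than the 3 reads that a count of 0 allows. The transcript named Y_RNA that holds the L1TD1 coding sequence had 64 reads. Inside the L1TD1 introns, 3 unspliced transcripts that the table lists under L1TD1 by position alone had 60, 59 and 7 reads. The one with 60 reads spans chr1:62196619-62203557 and ends at the same base as the added exon of the Y_RNA-named transcript, and the one with 7 reads begins at that exon's first base, chr1:62203447. Their reads together were 26 and 19 for hPSC, 24 and 19 for ectoderm, 12 and 9 for mesoderm and 9 and 8 for endoderm.

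At LIN28B an unspliced intronic transcript (chr6:105046059-105051449) had 24 reads, of which 7 and 12 were in ectoderm. A pair listed under LIN28B-AS1, an antisense gene upstream of LIN28B, had 13 and 9 reads, of which 4 and 5, and 3 and 5, were in ectoderm. All of these lie outside the gene counts compared above, and no test between groups is given for any of them alone.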

How the results depend on the processing

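No result of the 3 genes reversed among called values. Over all alternatives run, 319 gene results kept their side of the threshold, 4 became called and 1 lost its call. Among the 319, the fitted sign changed in 12, none of them called, as for LIN28A in ectoderm minus endoderm. The loss was LIN28B from hPSC to endoderm with reference-matching transcripts (-1.69, adjusted p = 0.0735). L1TD1 became called for ectoderm minus hPSC with all listed transcripts (-0.82, adjusted p = 0.0282) and for ectoderm minus mesoderm with only the 4 libraries compared (-0.73, adjusted p = 0.0414). Leaving out 1 library gave -0.96 to -0.11 for the former and -1.04 to -0.14 for the latter, called without the first hPSC library. The spread of the main transcript's share was 28.3 to 34.8 points for LIN28A, 5.27 to 21.0 for LIN28B and 21.3 to 39.8 for L1TD1 on leaving out 1 library. Without the first mesoderm library the exact permutation test passed for LIN28A (33.1 points, adjusted p = 0.0429) and LIN28B (21.0 points, adjusted p = 0.0429). Mesoderm then holds a single library, so the spread within groups comes from the other 3, and the LIN28B share rests on 17 reads. With reference-matching transcripts the spread of the main share was 35.6 points for LIN28B (adjusted p = 0.429). On the groups' own assemblies it was 57.3 points for LIN28B and 53.3 for L1TD1 (adjusted p = 0.114 each). The endoderm assembly held 1 LIN28B form, and the ectoderm and mesoderm assemblies held 1 L1TD1 form each. The main share there was 100% whatever the reads, so these own-assembly spreads do not test the shares. The own-assembly alternative for LIN28A, and the reference-only shares of LIN28A and L1TD1, could not be run.

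Counts of called genes moved more. DESeq2 called 3356, 1836 and 2315 genes in ectoderm, endoderm and mesoderm against hPSC, and 2015 for ectoderm minus mesoderm, against 5275, 2943, 3815 and 3846 by edgeR. The 4 libraries alone gave 2470 for mesoderm minus hPSC. Leaving out 1 library gave 3290 to 5938, 1450 to 4072 and 2006 to 5087 against hPSC, and 5322 to 8203, 1775 to 5640 and 3382 to 6484 for ectoderm minus endoderm, ectoderm minus mesoderm and endoderm minus mesoderm. Among transcripts, DESeq2 called 2899, 1606 and 2133 against hPSC, 1764 for ectoderm minus mesoderm and 3409 for endoderm minus mesoderm, against 5711, 3331, 4080, 4185 and 5692. Without a filter ectoderm minus endoderm gave 13103 against 7782. Leaving out 1 library gave 3608 to 7315, 1573 to 4819, 2178 to 6163, 6321 to 10443, 1956 to 6776 and 3609 to 7917 transcripts, in the same order of comparisons as for genes.

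Same-numbered repeats deviated together little (correlations from -0.032 to 0.129). These correlations cannot show whether such repeats share a culture or a batch. With the replicate block no gene call changed. The upstream LIN28B form in endoderm (-2.33, adjusted p = 0.0616) and the 544-nt LIN28A form for ectoderm minus endoderm (-0.73, adjusted p = 0.052) lost their calls. DESeq2 lost the call of the 544-nt form for mesoderm minus hPSC (-0.90, adjusted p = 0.0595). Over all transcript results, 589 kept their side of the threshold (the sign changed in 13, none called), 9 became called and 50 lost it. For transcript choice 526 results kept their side (the sign changed in 24, none called), and the rest became called. Those were the 544-nt LIN28A form for ectoderm minus mesoderm, at -1.01 on the log2 scale, on leaving out the first or the second hPSC library. Depth limits LIN28B in endoderm (6 reads) and the shares of LIN28B and L1TD1 outside ectoderm.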
